A study of Mus musculus with 6 samples.

Results

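The dynactin complex was examined in testis RNA of wild-type (WT) mice and of mice lacking Ttll5, a tubulin tyrosine ligase-like enzyme also named Stamp, with 3 arrays per group. Members were taken as the probe sets whose only platform gene symbol was that of a listed gene. Of the 10 genes listed, 9 had such probe sets and 1, Actr1b, had none and was skipped, which left 105 of 188590 probe sets and 9 of 15792 genes. The complex was chosen by a measured value, the knockout (KO) minus WT difference of a single Actr10 probe set, which stood far from the gene's other probe sets. The same comparison therefore describes the members here and does not test them.

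The WT animals and the Ttll5/Stamp KO animals were littermates matched for age and sex, on a background mixed from C57BL/6, 129/SvEv and FVB/N. The labels used here state neither the age of the mice nor the deleted part of the gene. They call the samples biological replicates without saying whether an array holds RNA of 1 animal or of a pool. Standard errors and p-values therefore rest on the spread between these 6 arrays, and their number limits the precision. Those from limma, the fit used here, also draw each variance toward the variances of all genes or probe sets. All values are log2 signals as deposited, a gene's value is the mean over its probe sets, and differences are KO minus WT.

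Dynactin is the large cofactor that cytoplasmic dynein needs to move cargo toward microtubule minus ends. It is built on a short filament of actin-related proteins. A flexible shoulder and arm reach from that filament to the dynein motor and the microtubule, while separate proteins cap the filament's ends. In the testis, dynein and dynactin are known from the manchette, the microtubule skirt that shapes the head of the elongating spermatid, and from transport between the manchette and the growing tail.

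The arrays had medians of 6.72 to 6.77 and lower quartiles of 4.59 to 4.67. Ttll5 stood at 11.16, 11.14 and 11.16 in the WT arrays and at 9.58, 9.49 and 9.53 in the KO arrays, in accord with their labels. Germ cell markers were bright in both groups, with a mean level of 12.50 to 12.56 in WT and 12.44 to 12.52 in KO for 10 genes of elongating spermatids. For 7 genes of round spermatids the ranges were 11.35 to 11.40 and 11.27 to 11.36, and for 7 of spermatocytes 10.90 to 10.99 and 10.81 to 10.97. Genes of the epididymis were dim, and 5 of the 6 measured (Lcn8, Lcn9, Adam28, Crisp1 and Spint4) had a WT mean under the lowest of the arrays' lower quartiles, 4.59, and are called dim below. Leydig cell genes were higher in value in KO in 6 of 6, with a mean level of 9.38 to 9.86 in WT and 9.98 to 10.09 in KO. Macrophage and leukocyte genes were so in 6 of 7 (5.03 to 5.13 and 5.19 to 5.29), with Ptprc, Cd14 and Itgam dim in WT. No marker gene passed the test over all genes (limma), while 4 Leydig, 2 macrophage and 1 elongating spermatid genes had an unadjusted p under 0.05. In whole testis, a change in the number of cells of a type and a change in RNA per cell cannot be told apart, and the part of these cell types in the members' differences was not tested.

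Gene values of the complex lay close together in the 2 groups, with Dctn3 as the exception in size and in spread. None of the 9 genes passed the threshold (0 of 9, limma, Benjamini-Hochberg adjusted p under 0.05), against 0.0697% of all genes. At an unadjusted p under 0.05 there was 1, Dctn3, against 6.05% of all genes. Values were higher in KO for 3 genes and lower for 6. The median difference of the 8 genes other than Actr10 was -0.05, against -0.0026 over all genes. Only Dctn1 had groups that did not overlap, which was true of 11.2% of all genes.

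**Figure D1:**
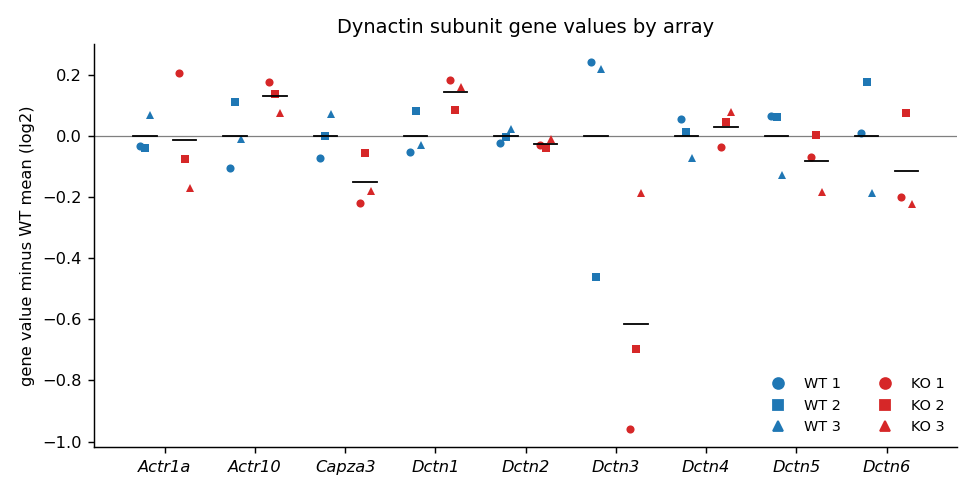
Gene values of the 9 measured members in each array, as log2 differences from the gene's WT mean. Points are single arrays (blue WT, red KO, shape by replicate number) and bars are group means. Dctn3 has the widest spread in both groups, with WT 2 apart from WT 1 and WT 3, while the other genes stay within a narrow band around 0.

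Actr10 encodes the actin-related protein at the pointed end of the dynactin filament, where it anchors the subunits Dctn4, Dctn5 and Dctn6. It lies on chromosome 12, as does Ttll5, with 121 measured genes between them, and no other member lies on that chromosome. The leading one of its 13 probe sets stood at 7.12, 6.90 and 6.97 in WT 1, WT 2 and WT 3 and at 9.56, 9.53 and 9.06 in KO 1, KO 2 and KO 3. All KO arrays lay more than 1 above all WT arrays. The difference was 2.39 (SE 0.17), a 5.24-fold higher signal.

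A second Actr10 probe set differed in the same direction. It stood at 10.50, 11.03 and 10.62 in the WT arrays and at 12.17, 12.27 and 12.15 in the KO arrays. Again the groups were far apart, with a difference of 1.48 (SE 0.16) or a 2.80-fold higher signal. In both probe sets the higher signal was present in each KO array.

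The remaining 11 Actr10 probe sets went the opposite way, all with lower values in KO, by -0.12 to -0.37 with a median of -0.21. Their mean was 11.70, 11.93 and 11.81 in WT and 11.66, 11.60 and 11.59 in KO, so that WT 1 lay only just above KO 1. The difference of that mean was -0.20 (SE 0.07 from the spread of the 3 arrays in each group), which corresponds to 87.2% of the WT signal. In 5 of the 11 all KO arrays lay below all WT arrays, which was true of 5.27% of all probe sets. None of the 11 passed the probe set threshold (0 of 11 in limma, and 0 at an unadjusted p under 0.05).

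Set against its own gene, the leading probe set lay below the mean of the other 12 in every array. The distance came to -4.48, -4.95 and -4.74 for WT and to -2.14, -2.12 and -2.57 for KO. The gap was smaller in each KO array than in any WT array. On average it was smaller in KO by 2.45 (SE 0.20 from the spread of the arrays). For the second probe set against the mean of the remaining 11, the distance was -1.20, -0.90 and -1.20 in WT and 0.51, 0.67 and 0.56 in KO. This probe set thus lay below the mean of those 11 in WT and above it in KO, a difference of 1.68 (SE 0.11 from the spread of the arrays).

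**Figure D2:**
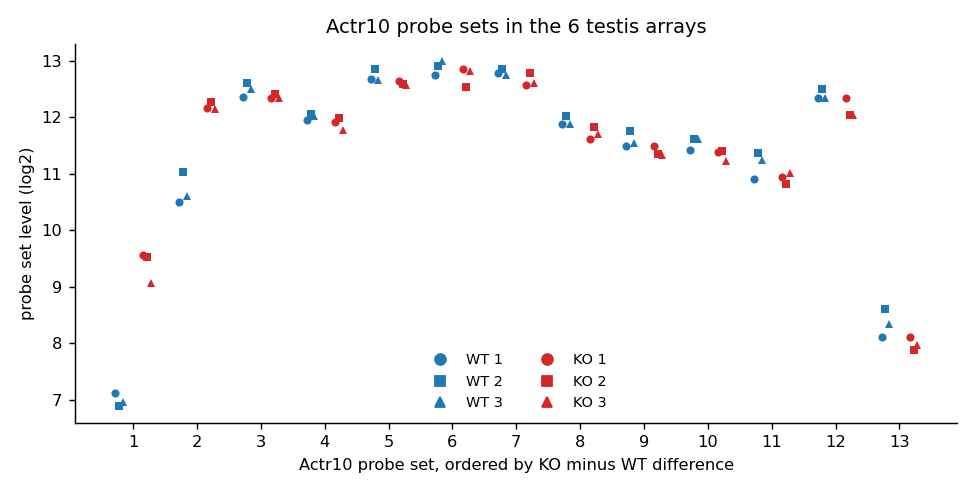
Levels (log2) of the 13 Actr10 probe sets in the 6 arrays, ordered from the highest to the lowest KO minus WT difference; colours are groups and shapes are replicate numbers. In the first and second probe set the KO points stand above the WT points, by 2.39 and 1.48 on average, and in the other 11 the KO means lie slightly lower.

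The gene value of Actr10 averages these opposed parts. It was 11.25, 11.47 and 11.35 in WT and 11.54, 11.50 and 11.43 in KO, with overlapping groups and a difference of 0.13 (SE 0.08). Without the leading probe set the difference was -0.06, and without both it was -0.20. The sign of the Actr10 gene value was thus set by 2 of its 13 probe sets. The exons behind these probe sets are not named in the annotation used here, and base differences between strains under the probes were not tested.

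Over the whole complex 1 of 105 probe sets, the leading one of Actr10, passed the threshold in the direction higher in KO, against 0.0201% of all probe sets, and 0 passed in the direction lower in KO, against 0.018% (limma; 9 of 105 had an unadjusted p under 0.05, against 5.36%). The rule chose the members through this contrast, so nothing is read from these shares. The count of 1 became 0 without WT 2, without WT 3, without KO 1 or without KO 2. Of the 9 members, only Actr10 had a probe set that departed by 1 or more from the median of the gene's others. The same was true of 2.17% of the 14152 genes with 3 or more probe sets. The share was 9.01% of the other chromosome 12 genes, with Actr10 and Ttll5 left out, and 1.93% of the genes not placed on chromosome 12.

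**Figure D3:**
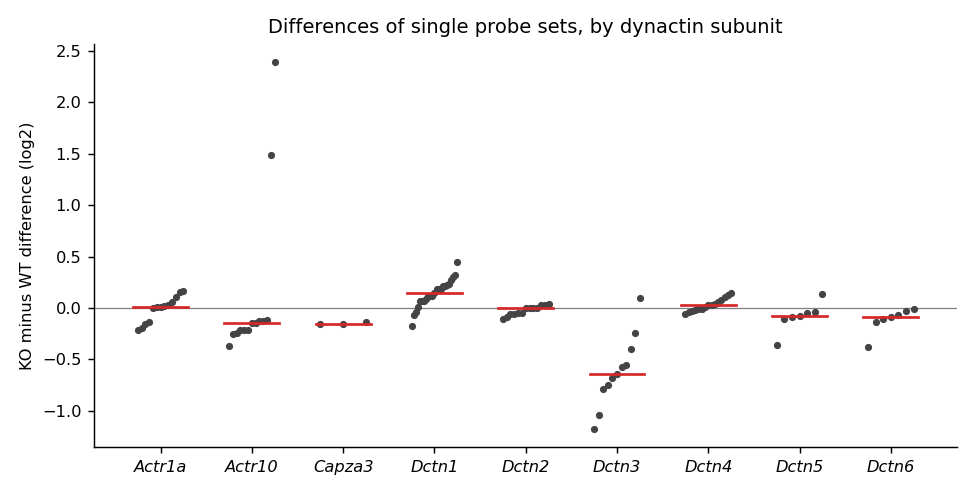
KO minus WT differences (log2) of the 105 single probe sets, by member. Each point is a probe set, sorted within its gene, and the red bar is the gene's median. The points of Actr10 at 2.39 and 1.48 stand apart from its other 11, whereas 10 of the 11 points of Dctn3 lie below 0 as a group.

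The filament that Actr10 caps consists largely of Actr1a and its close relative Actr1b. Actr1a stood at 10.43, 10.42 and 10.53 in WT and at 10.67, 10.39 and 10.29 in KO. The KO arrays lay on both sides of the WT arrays, and the difference was -0.01 (SE 0.10). Of its 13 probe sets 8 had higher and 5 lower values in KO, between -0.21 and 0.17. Some of them spread widely in KO, the widest with 11.84, 11.26 and 10.55 (SD 0.65, n = 3) against 11.43, 11.45 and 11.37 in WT, and another with 10.02, 9.14 and 9.54 (SD 0.44, n = 3) against 9.16, 9.56 and 9.49. Since Actr1a and Actr1b are closely similar, Actr1b transcripts could contribute to Actr1a signal where the probed sequence is shared. Probe sequences were not used here.

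Capza3, the capping protein alpha subunit of the male germ line, belongs to the family that closes the barbed end of the filament. It counts as a member here because it was listed, while Capza2 and Capzb are among the genes that work with dynactin. Whether Capza3 protein is part of the complex was not tested. Capza3 stood at 11.13, 11.20 and 11.28 in WT and at 10.98, 11.15 and 11.03 in KO. Only KO 2 reached into the WT range. The difference was -0.15 (SE 0.08), or 90.1% of the WT signal. Its 3 probe sets gave nearly the same value, from -0.14 to -0.16. The 10 markers of elongating spermatids, the cells in which Capza3 is known to act, had lower values in KO in 9 genes, with a median of -0.05, and their part in the Capza3 value was not tested.

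Dctn1 encodes the arm of dynactin that binds microtubules and the dynein intermediate chain. It was the member whose KO arrays all lay above the WT arrays, with 8.05, 8.18 and 8.07 in WT and 8.29, 8.19 and 8.26 in KO. The nearest arrays, WT 2 and KO 2, were almost level. The difference was 0.14 (SE 0.07), or 1.10-fold. Most of its probe sets shared the direction, with 20 of 23 above 0. Their differences ran from -0.18 to 0.44 around a median of 0.14. In 6 of the 23 all KO arrays lay above all WT arrays, and in 0 below, while over all probe sets 4.97% and 5.27% did so. Probe sets of a gene share the same 6 RNA samples, so these counts are not separate replicates.

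Dctn2, known as dynamitin, forms the shoulder with Dctn3 and Dctn1, and an excess of it is known to pull the complex apart. Its values hardly differed between arrays, with 11.13, 11.15 and 11.17 in WT and 11.12, 11.11 and 11.14 in KO. The difference was -0.03 (SE 0.06, and 0.02 from the spread of the arrays). All 13 of its probe sets lay between -0.11 and 0.04.

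Dctn3, the smallest shoulder subunit, had the largest difference in gene value of the complex, in a pattern that cut across the groups. It stood at 8.61, 7.90 and 8.58 in WT and at 7.41, 7.67 and 8.18 in KO. WT 1 and WT 3 lay above all KO arrays, while WT 2 lay below KO 3. The difference was -0.61 (SE 0.23, and 0.32 from the spread of the arrays), or 65.4% of the WT signal. Over all genes, 0.38% had a difference below -0.5.

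The array order of Dctn3 was shared along its length. In 10 of its 11 probe sets values were lower in KO, by -0.25 to -1.17. In all 10 of these WT 2 was the lowest WT array, KO 1 the lowest and KO 3 the highest KO array, and KO 3 lay above WT 2. The eleventh probe set was dim, with a WT mean of 4.32 and a difference of 0.10. In 0 of the 11 were the groups separate.

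The spread within each group, which played no part in choosing the members, also set Dctn3 apart in size. Its SD was 0.40 in WT and 0.39 in KO (n = 3 each). Over the other members the SD ran from 0.02 to 0.18 in WT and from 0.02 to 0.20 in KO, and the medians over all genes were 0.10 and 0.10. Only 1.67% of all genes had a WT SD as large as that of Dctn3, and 1.81% a KO SD as large.

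Dctn3 lies on chromosome 4, and the 10 measured genes on each side of it were described after its values had been seen. Differences of these 20 neighbours ran from -0.24 to 0.60 with a median of 0.01, and none passed the threshold over all genes (0 of 20 in limma, and 0 at an unadjusted p under 0.05). The highest was that of Cntfr, a receptor subunit for ciliary neurotrophic factor, which is separated from Dctn3 by 1 measured gene. Cntfr stood at 5.90, 6.90 and 5.69 in WT and at 7.01, 6.74 and 6.56 in KO, a difference of 0.60 (SE 0.28, limma adjusted p = 0.84). WT 1 and WT 3, the highest arrays for Dctn3, were the lowest for Cntfr, and KO 1, the lowest for Dctn3, was the highest for Cntfr. WT 2 and KO 1, the arrays with the lowest lower quartiles, were the highest Cntfr arrays of their groups. A few other neighbours, named after their values were seen, had part of the Dctn3 order. Atp8b5, listed as 4930417M19Rik, stood at 10.08, 9.69 and 10.07 in WT and at 9.56, 9.45 and 10.10 in KO. Rusc2 stood at 7.60, 7.06 and 7.89 and at 6.97, 7.30 and 7.76, and Dnaic1 at 9.62, 9.48 and 9.73 and at 9.57, 9.58 and 9.67. In these genes WT 2 was the lowest WT array and KO 3 the highest KO array, which held for no other of the 20 neighbours. In Atp8b5 KO 3 also lay above every WT array. Whether the likeness is more than chance was not tested. Of the 9 Cntfr probe sets 7 had higher values in KO. A strain difference at this locus was not tested.

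**Figure D4:**
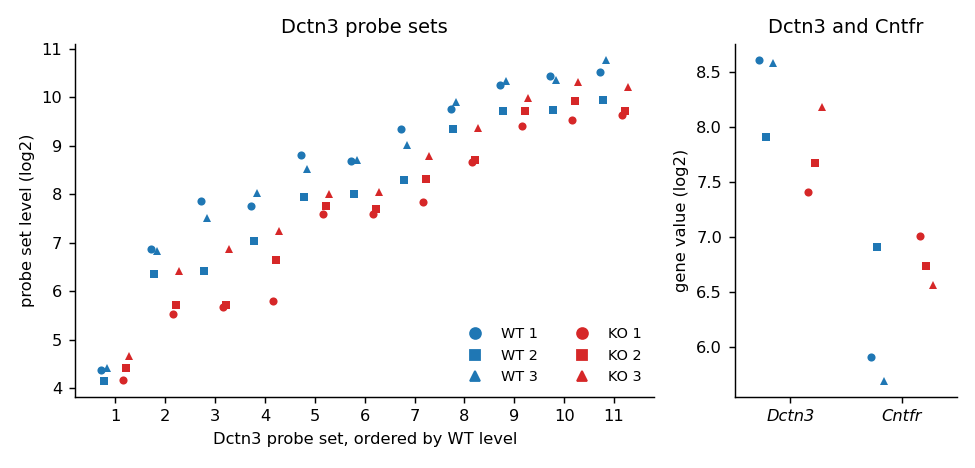
Left, levels (log2) of the 11 Dctn3 probe sets in the 6 arrays, ordered by WT level; right, gene values (log2) of Dctn3 and of its neighbour Cntfr. Colours are groups and shapes are replicate numbers. In each of the 11 Dctn3 probe sets WT 2 (blue square) lies below KO 3 (red triangle), and in Cntfr the order of the arrays is nearly turned around.

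The pointed-end subunits Dctn4, Dctn5 and Dctn6 lie beside Actr10 in the complex and take part in its attachment to cargo. Their gene values had small differences with overlapping groups. Dctn4 stood at 10.64, 10.60 and 10.51 in WT and at 10.55, 10.63 and 10.66 in KO, a difference of 0.03 (SE 0.07). Its 15 probe sets stayed between -0.06 and 0.15, and in 1 of them all KO arrays lay above all WT arrays, against 4.97% of all probe sets. Dctn5 stood at 8.29, 8.28 and 8.09 in WT and at 8.15, 8.23 and 8.04 in KO, a difference of -0.08 (SE 0.09). With the median of its 7 probe sets in place of the mean the difference was -0.36. That median was in every array the value of the same probe set, the one with the gene's largest difference. In it all KO arrays lay below all WT arrays, which was true of 5.27% of all probe sets. The differences of the 7 ran from -0.36 to 0.14 with a median of -0.08. With an array left out the gene difference ran from -0.03 (without KO 3) to -0.15 (without WT 3).

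Dctn6 stood at 10.001, 10.17 and 9.80 in WT and at 9.79, 10.07 and 9.77 in KO. In both groups replicate 2 was the highest, and the difference was -0.12 (SE 0.12). It was -0.03 without WT 2, -0.06 without KO 3, -0.07 without KO 1 and -0.21 without WT 3 or without KO 2. All 7 of its probe sets had lower values in KO, by -0.01 to -0.38, and in each of them the groups overlapped. The partners nearest to Actr10 in the complex thus showed no probe set with a difference like those of 2.39 and 1.48.

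Without Actr10, the complex held 92 probe sets, of which 42 had higher and 50 lower values in KO. Their median difference was -0.0042, against 0.0003 over all probe sets. In 7 of them, 6 of these from Dctn1, all KO arrays lay above all WT arrays, and in 5 below. The shares over all probe sets were 4.97% and 5.27%. None passed the threshold (0 of 92 in limma, and 7 at an unadjusted p under 0.05, against 5.36% of all probe sets). Those 7 came mostly from Dctn3 and otherwise from Dctn5, so the counts rest largely on single genes. Apart from Dctn3, no probe set of these members had a difference below -0.38 or above 0.44.

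The genes beside Actr10 on chromosome 12 were examined for the same behaviour. None of the 20 nearest measured genes passed the threshold (0 of 20, limma, adjusted p under 0.05), and their 293 probe sets held 0 that passed. At an unadjusted p under 0.05 there were 2 of the genes and 21 of the probe sets, against 6.05% of all genes and 5.36% of all probe sets. Gene differences ran from -0.24 to 0.19 with a median of -0.04. The largest were those of Dmac2l (-0.24, SE 0.08, limma adjusted p = 0.73), listed under its older name Atp5s, of Arid4a (0.19, SE 0.07, limma adjusted p = 0.78) and of Trim9 (-0.19, SE 0.08, limma adjusted p = 0.84). Of the 19 neighbours with 3 or more probe sets, 2 had a probe set that departed by 1 or more from its others. They were Nin, ninein, itself an adaptor of dynein and dynactin, and Lrrc9, both named after their values were seen. The gene value of Nin, over 40 probe sets, was dim, with a WT mean of 4.12. Its departing probe set stood at 5.37 in WT and 3.93 in KO, the latter at a dim level, and that of Lrrc9 at 10.51 and 11.81. In both the groups did not overlap.

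**Figure D5:**
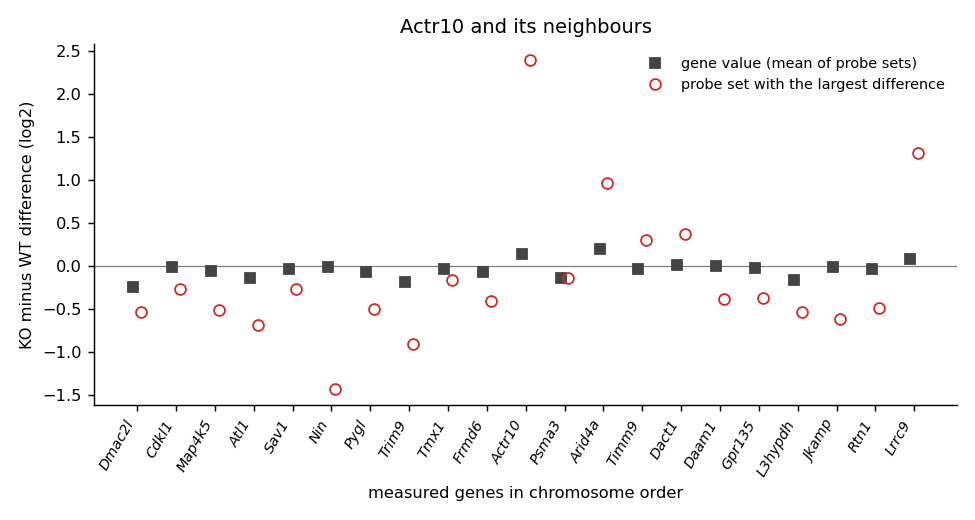
KO minus WT differences (log2) of Actr10 and of the 10 measured genes on each side, in chromosome order, without distances. Squares are gene values and open circles are the probe set of each gene with the largest difference. The circle of Actr10 at 2.39 is the highest, followed by that of Lrrc9 at 1.31, and the lowest is that of Nin at -1.43.

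The probe sets most like the leading one of Actr10 were sought among 179150 probe sets of other genes, by the Euclidean distance between the 6 values after centring each probe set on its mean. The nearest belonged to Coa8, a cytochrome c oxidase assembly factor listed as 2810002N01Rik, at a distance of 0.33. Next came Scn10a, a sodium channel, at 0.39, Tshr, the thyrotropin receptor, with 2 probe sets at 0.41 and 0.45, and Mdga2, an adhesion protein, at 0.53. The genes lie on chromosome 12, except Scn10a on chromosome 9. The second Actr10 probe set lay at 1.28, and 32 probe sets of other genes were nearer. The likeness rests mainly on the difference between groups, which was 2.32, 2.25 and 2.02 for the probe sets of Coa8, Scn10a and Mdga2. For the pair of Tshr it was 2.22 and 2.44, but their WT means of 3.64 and 3.65 are dim. The WT mean of the Mdga2 probe set, 4.61, lay only just above the limit of 4.59. In Tshr and Mdga2 the sizes thus rest on a WT level not shown to be above background.

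Genes that work with dynactin were taken from 4 lists, of which 49 of 58 genes were measured. None passed the threshold over all genes (0 of 49, limma, adjusted p under 0.05), and 3 of 49 (6.12%) had an unadjusted p under 0.05, against 6.05% of all genes. In 4 of the 49 all KO arrays lay below all WT arrays and in 0 above, while 6.67% of all genes were separate with KO below WT and 11.2% in either direction. The named genes have the largest differences of their list.

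Of the dynein motor subunits, 2 of 9 had higher and 7 lower values, with a median of -0.05. The light chain Dynll2 had -0.15 (SE 0.10), the light chain Dynlrb2 -0.13 (SE 0.10) and the intermediate chain Dync1i1 -0.08 (SE 0.09). Of the regulators and adaptors that join dynein to dynactin and cargo, 9 of 22 had higher and 13 lower values, with a median of -0.01. Among these 22, Bicd1 and Nin were dim in WT. Hook2, an adaptor of the Hook family, stood at 7.10, 7.46 and 7.40 in WT and at 6.95, 7.08 and 7.10 in KO, a difference of -0.28 (SE 0.10, limma adjusted p = 0.77). The adaptor Bicd2 had -0.17 (SE 0.09) and Hap1, a huntingtin-associated adaptor, 0.18 (SE 0.12).

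Of the actin and capping genes, 1 of 7 had a higher and 6 lower values, with a median of -0.05. The profilin Pfn3 had -0.16 (SE 0.12), the capping subunit Capza2 -0.11 (SE 0.13) and the cofilin Cfl2, on chromosome 12, -0.10 (SE 0.06). Of the other actin-related proteins, 1 of 11 had a higher and 10 lower values, with a median of -0.09. Germ cell markers leaned the same way, with lower values in KO in 6 of 7 spermatocyte genes (median -0.09), 6 of 7 round spermatid genes (median -0.04) and 9 of 10 elongating spermatid genes (median -0.05), and their part in these values was not tested. The testis genes Actrt1 (-0.37, SE 0.16), Actl7b (-0.19, SE 0.10) and Actl7a (-0.16, SE 0.06) had the largest differences. In Actl7a the arrays of each group lay close together, with 11.16, 11.14 and 11.14 in WT and 10.97, 10.99 and 11.01 in KO (limma adjusted p = 0.81).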

How the data were processed

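RNA of 6 testis samples was hybridised to mouse exon arrays. The authors deposited 1 table of log2 probe set values; the submitters' processing notes name RMA and Partek 6.5 without saying what each did. RMA makes array distributions alike, which would hide a shift common to most genes. Values were used as deposited, with no filter or pseudocount. Of 188590 probe sets, 179163 had 1 symbol, 1322 several and 8105 none; only the first kind entered gene values. Current names, chromosomes and neighbours came from the RefSeq table of GRCm38.p6 (13716 symbols current, 2039 older, 37 unmatched); the build of the array annotation is not stated there, so no coordinates are printed.

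The 2 groups were fitted with limma 3.58.1 in R 4.3.3 (lmFit, eBayes, two-sided, no covariates) over all genes and all probe sets, with Benjamini-Hochberg adjustment and a threshold of 0.05. SEs are limma's unless said otherwise. An exact permutation test of 3 against 3 cannot go below 0.1. The scripts were tested on simulated data.

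Members, lists and rules were chosen with earlier results of these data known. All measured members are named; of each list the genes past the threshold, or else the 3 with the largest differences; of the neighbours of Actr10 the 3 with the largest; and the 5 probe sets most like the leading one of Actr10. Lists of Sertoli, spermatogonial, blood, and peritubular and vascular genes had 6 of 9, 2 of 6, 2 of 2 and 5 of 7 measured genes higher in KO, with 0 past the threshold (limma; 0 at an unadjusted p under 0.05).

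Same-numbered arrays were compared by the correlation over genes of deviations from their group means. It was -0.17, 0.07 and 0.18. For arrays of unlike number it ran from -0.29 (WT 2 and KO 3) to 0.22 (WT 2 and KO 1). The numbers were therefore not taken to pair the arrays. Alternatives covered a replicate block, each array left out, normalization, moderation, array weights, the gene summary and dim values.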

Additional observations from a re-analysis of the deposited data

How the results depend on the processing

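The count of genes past the limma threshold, 11, was 2 without moderation, 20 with trended and robust moderation and 5 with the median of probe sets. The count of probe sets, 72, was 7 with the replicate block, 3 without moderation, 125 with trended and robust moderation and 13 to 37 with an array left out. The members' count of 1 probe set was 0 with the replicate block or without moderation and 0 to 1 with an array left out. It was 2, the second Actr10 probe set included, with trended and robust moderation and without dim probe sets. In each of 14 alternatives 0 members, 0 pathway genes and 0 neighbours of Actr10 passed at gene level. The leading Actr10 probe set differed by 2.30 to 2.55 with an array left out. An added comparison split the arrays by their lower quartile, although these differ little (4.59 to 4.67) and no label names such a split. The cut put WT 3 (4.64) with WT 2 (4.59) and KO 1 (4.60), although its quartile lies nearer to that of WT 1 (4.66). The split thus does not set WT 2 and KO 1 apart as a pair. It leaves a single array in 1 group on each side, so only the sizes are given. Within WT 2, WT 3 and KO 1 the probe set differed by 2.63, and from its other probe sets by 2.71, and within WT 1, KO 2 and KO 3 the latter was 2.14. With this split counted among the alternatives, Dctn3 stayed below 0 in 16 of 16 (-0.44 to -0.84), and Dctn1 above 0 (0.12 to 0.18). Capza3 also stayed below 0 (-0.04 to -0.26), with both ends from the split. With an array left out Capza3 ran from -0.12 to -0.20. The Actr10 gene value was -0.04 with the median of probe sets. Dctn5 (-0.03 to -0.36, the latter with the median of probe sets) and Dctn6 (-0.03 to -0.21) kept their sign. Actr1a, Dctn2 and Dctn4 changed sign in some alternatives. The causes were not tested.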
